A study of Caenorhabditis elegans with 6 samples.

Results

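The invertebrate-type lysozyme genes ilys-1 to ilys-6 of C. elegans were taken by name, as all 6 genes of that name series, from the 46778 genes counted. Of the 6 genes, 5 had at least 1 read, and 4 (ilys-2, ilys-3, ilys-4 and ilys-5) had enough reads to be among the 15950 genes tested. RNA was sequenced from whole worms at the L4 larval stage. Wild-type worms (strain N2) and scav-4(unk59) worms (strain CGZ413) were grown from L1 on E. coli OP50 or on Microbacterium sp. JUb74, and scav-4(unk49) worms (strain CGZ337) on E. coli OP50. Each of these 5 groups had 2 libraries. scav-4 is a relative of the mammalian scavenger receptor CD36, and the labels do not say what either allele does to the gene or whether libraries within a group are separate cultures. The p-values below therefore measure the spread between libraries, which may be technical. JUb74-fed scav-4(unk49) worms were not analysed here.

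Lysozymes cut the sugar backbone of peptidoglycan, the mesh that gives the bacterial cell wall its strength. Peptidoglycan is thick and exposed in Gram-positive bacteria such as Microbacterium, and thin and covered by an outer membrane in Gram-negative bacteria such as E. coli. C. elegans eats bacteria, so its lysozymes serve both in digestion and in defence, and it has an invertebrate-type family (ilys) beside a protozoan-type family (lys). ILYS-3 is the best studied of the ilys proteins: it is made in the pharynx, the intestine and the scavenging coelomocytes, degrades peptidoglycan and protects against Gram-positive pathogens. The comparisons asked how the family differed between the foods and between the genotypes.

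Depth hardly differed, at 21937088 to 22692632 assigned read pairs per library. Marker genes of reproductive development differed widely between groups, and for vitellogenin (6 genes) also between the unk59 libraries on OP50, whose sums were far apart. The summed level of 12 oocyte and eggshell genes, in CPM (read pairs per 1000000 of the scaled library size), was 93.8 and 97.7 in wild type on OP50 and 15.04 and 20.2 in wild type on JUb74. It was 21.0 and 30.1 in unk59 on OP50, 1489 and 2215 in unk59 on JUb74, and 4713 and 1861 in unk49 on OP50. None of the 12 was at 0 in any library. Worms labelled L4 thus differed in these markers between genotypes and foods, and the part of this in the results below was not tested. A fit with these markers as a covariate is cited below. The markers differed mainly between groups, so that fit cannot separate them from food or genotype. With it 0 of all genes tested passed for the food in wild type, against 1426 without it. The mutated gene scav-4 averaged 6.60 CPM in unk49 against 41.7 in wild type on OP50, and 38.8 in unk59 on OP50.

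The genes ilys-3, ilys-2 and ilys-1 form a tandem cluster on the plus strand of chromosome IV (WBcel235 annotation). ilys-3 (WBGene00016670) lies at 2464456 to 2465443, ilys-2 (WBGene00016669) at 2467678 to 2468879 and ilys-1 (WBGene00016668) at 2470414 to 2471449. Gaps of 2234 and 1534 bases separate them, with 0 annotated genes between. ilys-2 and ilys-3 have 4 exons each and the same coding length, 417 bases, while the annotated coding length of ilys-1 is 219 bases. ilys-6 (WBGene00020982, 4062514 to 4063673) and ilys-4 (WBGene00016958, 7895628 to 7897543) lie farther along chromosome IV on the minus strand. ilys-4 overlaps the span of atic-1, a gene of the other strand, and shares 0 exon bases with it. ilys-5 (WBGene00017691) lies on the minus strand of chromosome X, at 6533490 to 6536840, and its coding length is again 417 bases. Read pairs that map to several genes are left out of the counts, so any stretch that the clustered genes share would lower their levels. How alike their sequences are was not examined here.

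Levels within the family ran from 0 reads to 1164 CPM. ilys-5 was the main family member on OP50 in all 3 genotypes. It was at 1152 and 1107 CPM in wild type on OP50, 1098 and 421 in wild type on JUb74, and 860.1 and 1164 in unk59 on OP50. It was at 385 and 354 CPM in unk59 on JUb74 and at 771 and 944 in unk49 on OP50. Both unk59 libraries on JUb74 lay below every other library, and neighbouring groups overlapped in all other steps of the order. Per exon length (RPKM, the CPM divided by merged exon length in kilobases), its level ranked between 179 and 487 among the 46603 genes with a known length.

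ilys-4 was low and even, between 11.7 and 20.5 CPM in all 10 libraries. Its values were 15.1 and 13.6 CPM in wild type on OP50, 20.5 and 17.9 in wild type on JUb74, and 19.9 and 17.1 in unk59 on OP50. They were 12.3 and 11.7 CPM in unk59 on JUb74 and 15.8 and 14.6 in unk49 on OP50. The lowest libraries were again those of unk59 on JUb74, and they did not overlap with any other group.

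ilys-3 was close to undetected on OP50 and abundant on JUb74. It was at 0.321 and 0.315 CPM in wild type on OP50, from 7 read pairs in each library, and at 53.6 and 66.7 CPM in wild type on JUb74. In unk59 it was at 0.152 and 0.764 CPM on OP50 and at 155 and 275 on JUb74. In unk49 on OP50 it was at 0.985 and 1.99 CPM. Its groups therefore ran from unk59 on JUb74 through wild type on JUb74 and unk49 on OP50 down to unk59 and wild type on OP50, and only the last 2 overlapped. By RPKM, ilys-3 ranked 13532 and 13585 in wild type on OP50, where 18587 and 18691 genes had any read. It ranked 463 and 280 in unk59 on JUb74, where 19558 and 19514 genes had any read.

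ilys-2, its neighbour, followed the same order of groups. It was at 0.137 and 0.225 CPM in wild type on OP50, from 3 and 5 read pairs, and at 63.5 and 69.9 CPM in wild type on JUb74. In unk59 it was at 0.254 and 0.191 CPM on OP50 and at 56.05 and 108 on JUb74. In unk49 on OP50 the libraries stood apart, at 0.471 and 3.54 CPM. Here the JUb74 groups of both genotypes overlapped, as did wild type and unk59 on OP50, while unk49 lay between the foods.

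The last members were at or near 0 reads. ilys-1, the gene in the cluster next to ilys-2, had 0 reads in all 10 libraries, which allows a level of up to 0.123 to 0.152 CPM, depending on the library (3 counts, counting error only). ilys-6 had 6 reads in all, 1 and 2 in the unk59 libraries on JUb74 and 3 in library 1 of unk49 on OP50. Neither gene was tested.

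**Figure D1:**
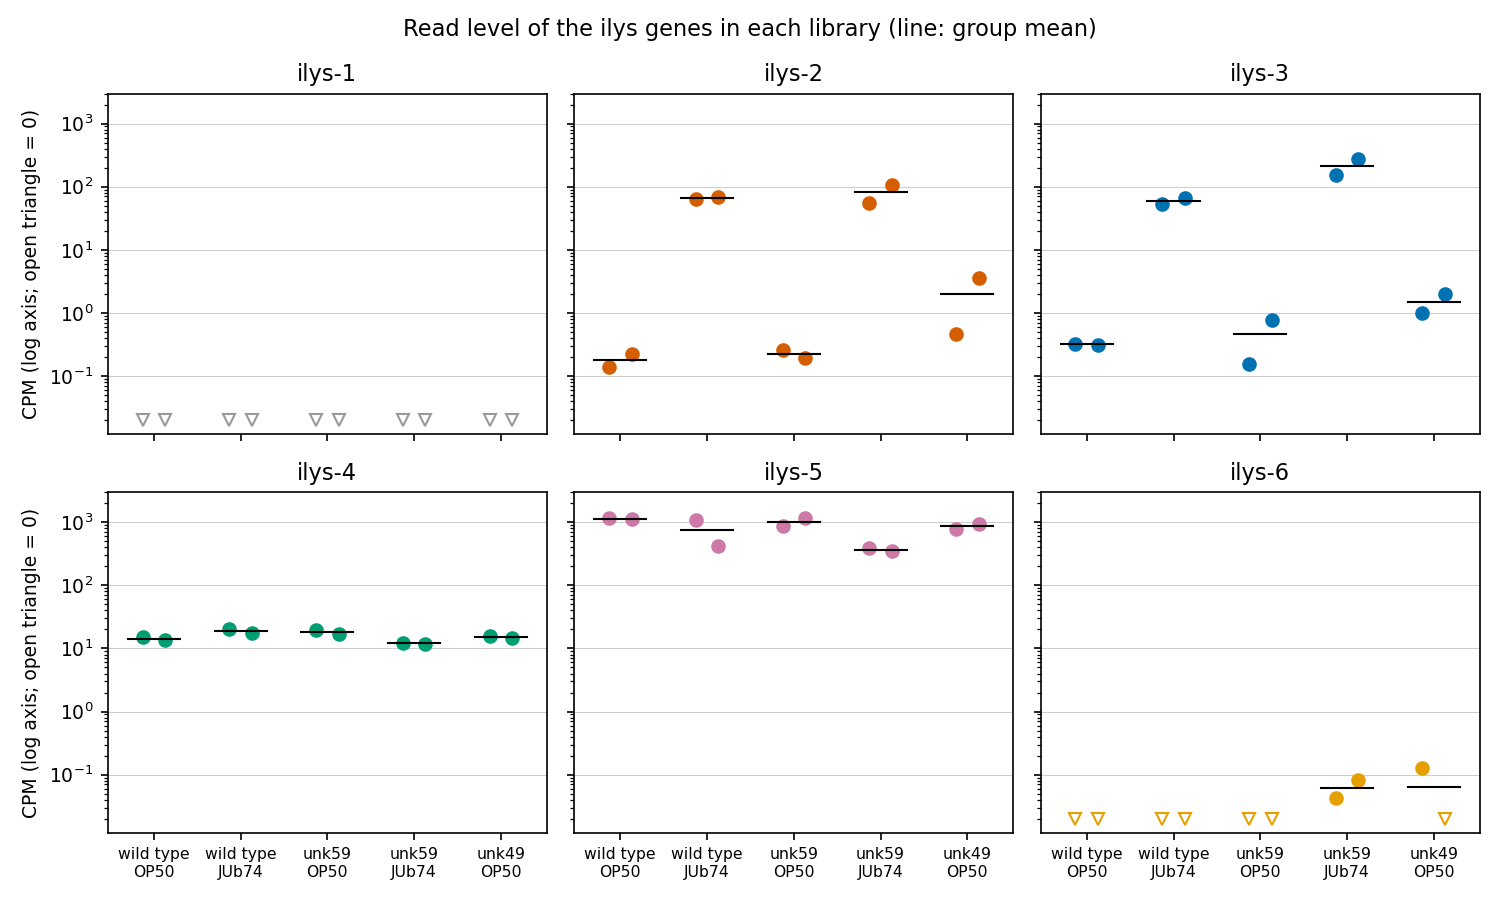
Read level (CPM, log axis) of each ilys gene in the 10 libraries by genotype and food; points are libraries, lines are group means, and open triangles at the foot mark a count of 0. ilys-2 and ilys-3 are between 53.6 and 275 CPM in the JUb74 libraries and at most 3.54 CPM in the OP50 libraries, while ilys-5 is at least 354 CPM in all.

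The effect of the food was tested in wild type. ilys-2 and ilys-3 rose on JUb74, and no change in ilys-4 or ilys-5 passed the test. ilys-2 rose from 0.181 ± 0.0619 to 66.7 ± 4.49 CPM (SD, n = 2), which is 8.48 log2 units (standard error 0.882, adjusted p 0.00492, edgeR's quasi-likelihood test). ilys-3 rose from 0.318 ± 0.00407 to 60.2 ± 9.24 CPM (SD, n = 2), which is 7.54 log2 units (standard error 0.592, adjusted p 0.00134). Among the 15950 genes tested these fold changes ranked 4 and 5 from the top. Because the OP50 counts are so small, the size of the rise is uncertain: the ratio of scaled counts was 368 for ilys-2, with an exact 95% interval from 187 to 854, and 191 for ilys-3, from 113 to 349. These intervals cover counting error only.

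Over all genes, 8.94% passed the test in this comparison, 2.65% higher and 6.29% lower. ilys-2 and ilys-3 passed the filter on low counts through their JUb74 libraries, so that 2 of 4 tested members rose is a description of those genes and says nothing about the family as a group. The call of ilys-2 was lost without library 1 of wild type on OP50 (8.17, adjusted p 0.0821) or without library 2 (8.85, adjusted p 0.0770). ilys-3 kept its call with any library left out, and with the oocyte markers as a covariate both calls were lost (adjusted p 0.349 and 0.250) at log2 fold changes of 7.37 and 8.22.

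ilys-2 and ilys-3 also rose on JUb74 in unk59. ilys-2 rose from 0.222 ± 0.0444 to 82.0 ± 36.7 CPM (SD, n = 2), which is 8.50 log2 units (standard error 0.873, adjusted p 9.19e-05). ilys-3 rose from 0.458 ± 0.432 to 215 ± 84.7 CPM (SD, n = 2), which is 8.84 log2 units (standard error 0.597, adjusted p 3.05e-05). The ratios of scaled counts were 373 (exact 95% interval 196 to 816) and 462 (296 to 768). Here 59.8% of all genes passed the test, 33.5% higher and 26.3% lower, and the ranks of the fold changes from the top were 70 for ilys-2 and 50 for ilys-3. Both calls held with any library left out and were lost with the oocyte markers as a covariate (adjusted p 0.199 and 0.169).

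The food effects were then compared between genotypes through an interaction term. The difference between the effects was 0.02 on the log2 scale for ilys-2 (adjusted p 0.9998) and 1.30 for ilys-3 (standard error 0.898, adjusted p 0.271), where 43.3% of all genes passed, 23.3% higher and 20% lower. A p that misses the threshold does not show that the effects were alike. For ilys-3 the difference lay between 0.59 and 2.87 with any library left out. The highest value came without library 2 of unk59 on OP50, whose 16 read pairs stand against 3 in library 1. With the oocyte markers as a covariate the difference was -0.92. Among 18 alternatives the ilys-3 difference passed the threshold under 1 and changed sign under 1.

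On JUb74 itself, where counts were high, ilys-3 was higher in unk59 than in wild type by 1.84 log2 units (standard error 0.404, adjusted p 0.00371). Of all genes 59% passed in this comparison, 33% higher and 26.1% lower. The libraries did not overlap, at 155 and 275 against 53.6 and 66.7 CPM, and the value lay between 1.39 and 2.20 with any library left out. It was 0.15 (adjusted p 0.982) with the oocyte markers as a covariate. ilys-2 did not pass in the same comparison, at 0.30 (standard error 0.546, adjusted p 0.660), and turned to -0.23 without library 2 of unk59 on JUb74.

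The shares of these neighbouring genes did not overlap between the genotypes on JUb74. Of the read pairs of ilys-2 and ilys-3 together, ilys-3 held 45.8% (exact 95% interval 43.8% to 47.8%) and 48.8% (47.1% to 50.6%) in the wild-type libraries on JUb74. In the unk59 libraries on JUb74 it held 73.4% (72.2% to 74.7%) and 71.8% (70.9% to 72.7%). Their merged exon lengths are 492 bases for ilys-2 and 494 for ilys-3, so the shares are nearly those per length. The difference in this share was not tested, and the intervals cover counting error only. On OP50 the reads were too few for a precise share, with intervals as wide as 8.52% to 75.5%. In the unk49 libraries ilys-3 held 67.6% (49.5% to 82.6%) and 36.0% (27.6% to 45.1%). Libraries of the same group can thus differ in this share beyond counting error, which limits the contrast between the genotypes on JUb74.

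The levels of ilys-2 and ilys-3 were set beside the oocyte and eggshell markers library by library. The JUb74 libraries of wild type had the lowest marker sums, 15.04 and 20.2 CPM, and those of unk59 had sums of 1489 and 2215 CPM, and both lysozymes were above 53 CPM in all 4. The unk49 libraries on OP50, at marker sums of 4713 and 1861 CPM, had at most 3.54 CPM of either gene. Among the OP50 libraries the highest levels of both genes were those of unk49.

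**Figure D2:**
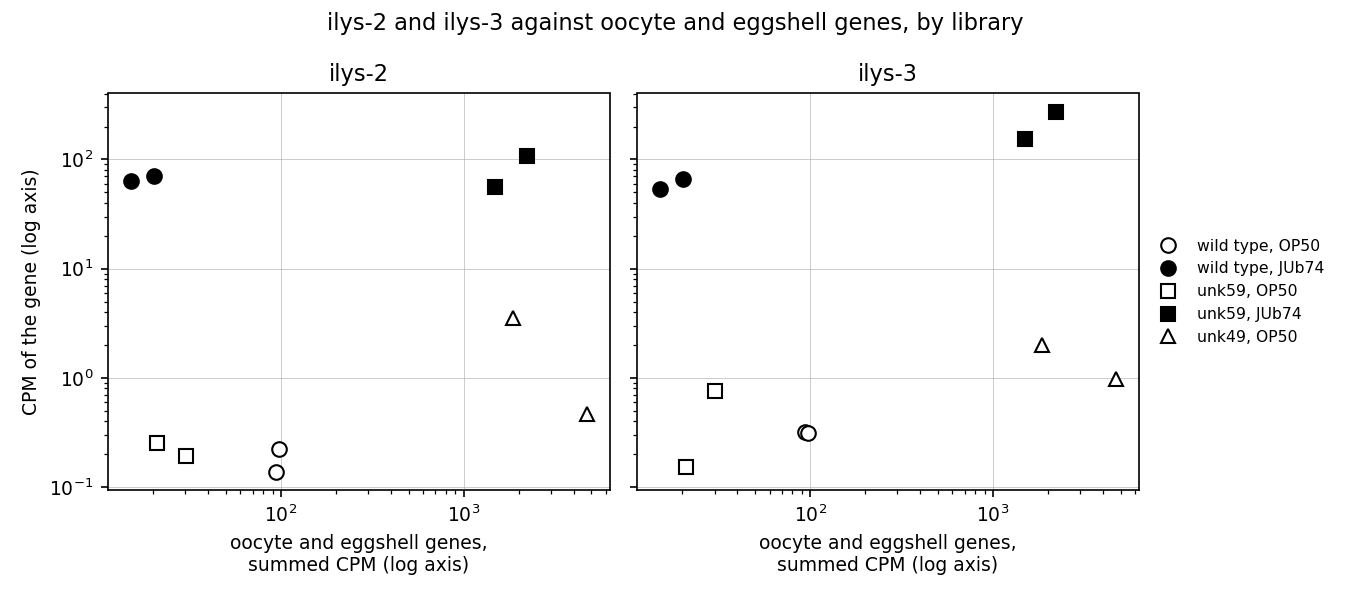
Level of ilys-2 and ilys-3 (CPM, log axis) against the summed level of 12 oocyte and eggshell genes (CPM, log axis); each point is a library, filled for JUb74 and open for OP50. The 4 JUb74 libraries lie at the top at marker sums from 15.04 to 2215 CPM, and the 6 OP50 libraries lie at or below 3.54 CPM.

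ilys-5 fell on JUb74 in unk59, as did 26.3% of all genes. It went from 1012 ± 215 to 370 ± 22.1 CPM (SD, n = 2), which is -1.45 log2 units (standard error 0.374, adjusted p 0.00829). Without library 2 of unk59 on JUb74 it was -1.41 (adjusted p 0.0551). In wild type its change of -0.57 (standard error 0.367, adjusted p 0.379) did not pass. That value rests on libraries that disagree: it was -1.43 (adjusted p 0.0294) without library 1 of wild type on JUb74, which held 1098 CPM, and -0.19 without library 2, which held 421 CPM. The food effects of the genotypes differed by -0.88 (standard error 0.519, adjusted p 0.198), or by -1.27 (adjusted p 0.00959) when the wild-type JUb74 library 2 was left out and -0.026 when library 1 was. On JUb74, the log2 difference of unk59 from wild type was -1.04 (standard error 0.370, adjusted p 0.0357), a call lost under 12 of 19 alternatives and a value of -0.18 without library 1 of wild type on JUb74.

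ilys-4 fell on JUb74 in unk59, as did 26.3% of all genes, and its food effect differed between the genotypes, as did that of 43.3%. In unk59 it went from 18.5 ± 2.02 to 11.995 ± 0.475 CPM (SD, n = 2), which is -0.63 log2 units (standard error 0.191, adjusted p 0.0186). In wild type its level was 14.4 ± 1.08 on OP50 and 19.2 ± 1.87 CPM on JUb74 (SD, n = 2), a change of 0.42 log2 units that did not pass (standard error 0.190, adjusted p 0.211). The effects differed by -1.04 (standard error 0.270, adjusted p 0.0121), and on JUb74 the log2 difference of unk59 from wild type was -0.68 (standard error 0.191, adjusted p 0.0130). That call was lost without library 1 of wild type on JUb74 (0.0850) or without library 2 of unk59 on JUb74 (0.0707). The call of the fall in unk59 was lost under 5 of 19 alternatives. Among these were the fits without library 1 of unk59 on OP50 and without library 1 or library 2 of unk59 on JUb74. The fit with the oocyte markers as a covariate was another. atic-1, which overlaps ilys-4 on the other strand, encodes an enzyme of purine synthesis and changed by -1.53 in wild type and -2.26 in unk59.

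Marker genes of the tissues that can make lysozymes were set beside these values. Over all genes, 33.5% rose and 26.3% fell on JUb74 in unk59, and 2.65% rose and 6.29% fell in wild type. Of 8 intestinal marker genes, 6 fell on JUb74 in unk59 and 0 passed in wild type. Their summed level was 7891 to 9765 CPM in unk59 on JUb74, 19884 to 21744 in unk59 on OP50, 14790 to 26218 in wild type on JUb74, 16443 to 19610 in wild type on OP50 and 18983 to 20638 in unk49 on OP50. None of the 8 was at 0 in any library. The wild-type library on JUb74 with the higher sum, library 1, had the lower level of both ilys-2 and ilys-3 and the higher level of ilys-4 and ilys-5, the latter at 1098 against 421 CPM. The unk59 libraries on JUb74, with the lowest sums, also had the lowest levels of ilys-4 and ilys-5. In whole worms, fewer cells of a tissue and less RNA per cell cannot be told apart. The 3 coelomocyte markers summed to 3.12 to 8.11 CPM in wild type on JUb74 and 19.1 to 22.3 in unk59 on JUb74. On OP50 they summed to 4.63 to 11.2 CPM over the genotypes. For the food in unk59 only 1 of the 3 was positive, and it passed. The log2 fold changes there ran from -1.29 to 1.92 (median -0.05). The 9 markers of pharyngeal muscle and gland, 7 of them tested, summed to 55.8 to 151 CPM in both wild-type groups and 3.89 to 39.5 in the mutant groups. Sums differed widely within groups (3.89 and 39.5 CPM in unk49), and up to 5 of the 9 had at most 3 reads in a library. Against wild type, 0 of 7 passed in unk59 on OP50 (0.0125% of all genes). In unk49 on OP50 3 fell (19.1% of all genes) and 2 were positive, and in unk59 on JUb74 4 fell (26.1%). On JUb74, 12 of 12 moulting genes fell in unk59 and 1 in wild type. Of 10 sperm genes, 10 rose in unk59 and 8 fell in wild type. Of 6 vitellogenin genes, 0 passed in unk59, whose OP50 libraries held 73.2 and 5410 CPM of them, and 5 fell in wild type. The 3 body wall muscle genes fell in unk59 and did not pass in wild type. The part of these markers in the levels of the lysozymes was not tested, and the covariate fit used only the oocyte and eggshell markers.

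The genotypes were also compared on OP50. Between unk59 and wild type none of the 4 tested members passed, where 0.0125% of all genes did. Their log2 fold changes were 0.28 for ilys-2 (standard error 1.38), 0.54 for ilys-3 (standard error 0.775), 0.37 for ilys-4 (standard error 0.191) and -0.16 for ilys-5 (standard error 0.366), with adjusted p of at least 0.520 and unadjusted p of at least 0.0858, and DESeq2 also called 0 of them. With so few reads of ilys-2 and ilys-3, a moderate difference was not detectable.

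In unk49 on OP50, ilys-2 and ilys-3 were higher than in wild type, at levels far below those on JUb74. ilys-2 rose to 2.003 ± 2.17 CPM (SD, n = 2), which is 3.42 log2 units (standard error 0.961, adjusted p 0.0172), and ilys-3 to 1.49 ± 0.709 CPM (SD, n = 2), which is 2.20 log2 units (standard error 0.645, adjusted p 0.0203). In this comparison 46.3% of all genes passed, 27.2% higher and 19.1% lower. Both calls rest on library 2 of unk49, which held 80 and 45 read pairs of the genes against 11 and 23 in library 1: without it the values were 1.27 (adjusted p 0.240) and 1.54 (adjusted p 0.164). They were also lost without library 1 of wild type on OP50 (adjusted p 0.107 and 0.0906) or without library 2 (0.0806 and 0.0932). ilys-4 (0.08, standard error 0.191, adjusted p 0.735, and -0.12 under upper-quartile scaling) and ilys-5 (-0.40, standard error 0.367, adjusted p 0.394) did not pass.

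Against unk59 on the same food, unk49 was higher for ilys-2 by 3.14 (standard error 0.945, adjusted p 0.0195) and for ilys-3 by 1.66 (standard error 0.613, adjusted p 0.0440), where 54% of all genes passed, 30.2% higher and 23.8% lower. Without library 2 of unk49 these values were 1.09 (adjusted p 0.283) and 1.08 (adjusted p 0.271), and the ilys-3 value was 0.95 (adjusted p 0.211) without library 1 of unk59 and 3.23 without library 2. Among 18 alternatives the call of unk49 against unk59 was lost under 7 for ilys-2 and under 10 for ilys-3, whose sign changed under 1 more. The comparisons on OP50 share libraries: unk59 and unk49 are both set against the same wild-type libraries.

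**Figure D3:**
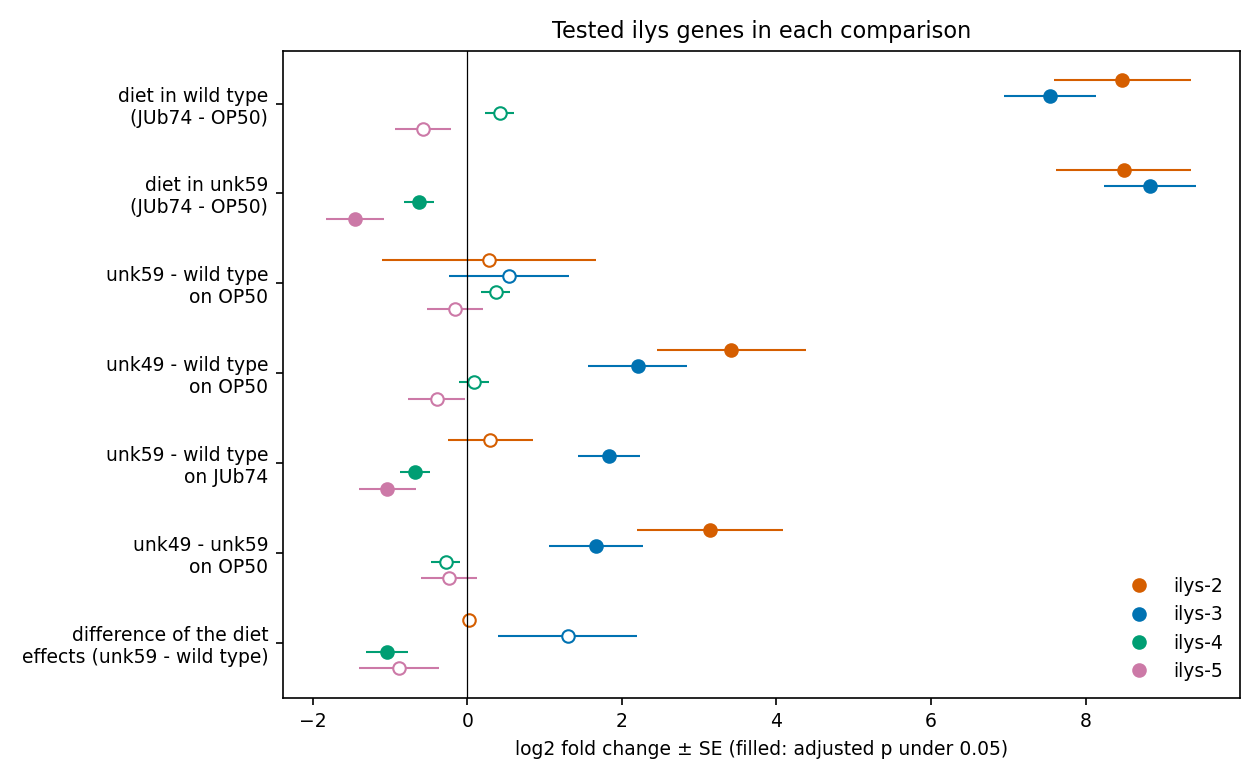
Log2 fold change (points) with its standard error (bars) of the 4 tested ilys genes in each comparison; filled points passed an adjusted p of 0.05. ilys-2 and ilys-3 lie between 7.54 and 8.84 for the food in both genotypes, while ilys-4 and ilys-5 lie between -1.45 and 0.42 there. For the difference of the food effects no error is drawn for ilys-2, whose value of 0.02 is too close to 0 to derive one.

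Per exon length, the make-up of the family differed between the foods. On OP50, ilys-5 held between 96.1% and 97.9% of the summed RPKM of the family in the 6 libraries of all genotypes, and ilys-2 at most 0.940%. In wild type on JUb74, ilys-5 held 76.4% and 52.2%, ilys-2 held 11.5% and 22.6%, and ilys-3 held 9.70% and 21.5%. In unk59 on JUb74, ilys-3 held 42.2% and 52.2%, ilys-5 held 40.4% and 25.9%, and ilys-2 held 15.3% and 20.6%. In these libraries ilys-3 was therefore the family member with the largest level per length. The summed RPKM of the family did not separate the foods. It was 917 and 881 in wild type on OP50, 1119 and 627 in wild type on JUb74, 696 and 930.3 in unk59 on OP50, 743 and 1066 in unk59 on JUb74, and 623 and 765 in unk49 on OP50.

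**Figure D4:**
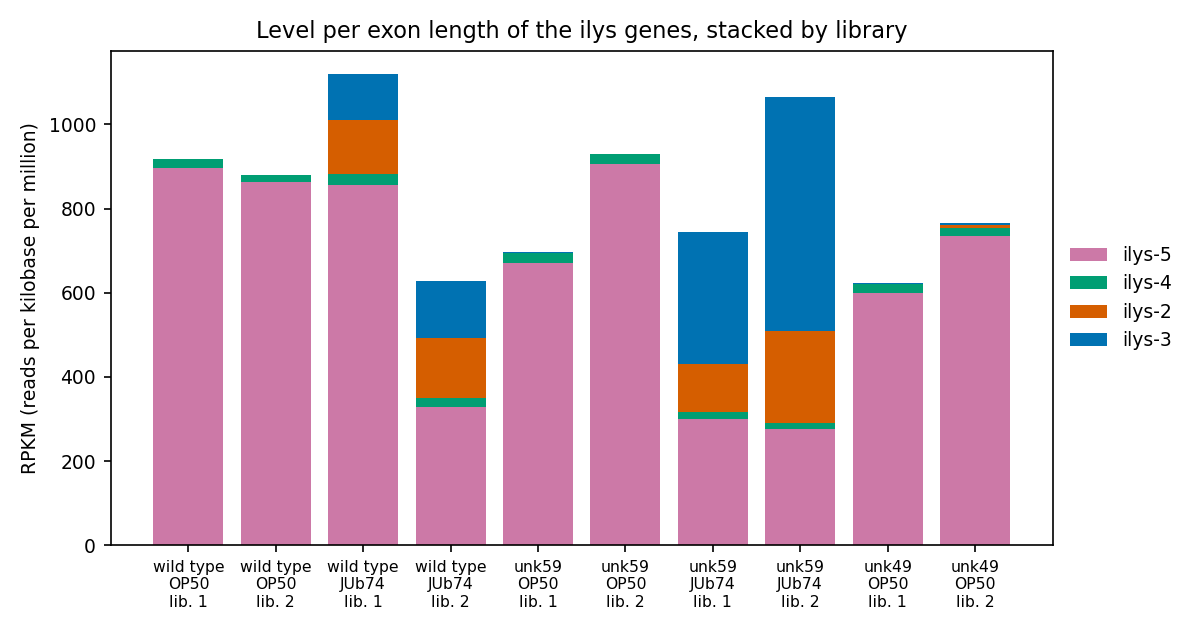
Level per exon length (RPKM) of ilys-5, ilys-4, ilys-2 and ilys-3, stacked for each of the 10 libraries; ilys-1 and ilys-6 are too low to be seen. The OP50 bars are nearly all ilys-5, and in the unk59 libraries on JUb74 ilys-3 makes up 42.2% and 52.2%.

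The rise on JUb74 was set beside the genes around the cluster. Within 20000 bases of ilys-1, ilys-2 or ilys-3 lie 5 further protein-coding genes, of which 4 were tested. cdh-10, a cadherin gene that begins just upstream of ilys-3 on the other strand, changed by 0.45 in wild type (standard error 0.309, adjusted p 0.419) and fell by 4.84 in unk59 (standard error 0.373, adjusted p 3.98e-05). C45G7.13 changed by 0.49 in wild type (adjusted p 0.149) and fell by 1.65 in unk59 (adjusted p 0.000197). Y69A2AL.2 changed by 0.27 and -0.07 and did not pass. Y69A2AR.19 averaged 4.11 CPM on OP50 and had 0 reads on JUb74 in wild type (adjusted p 0.0295), and rose by 4.49 in unk59 (adjusted p 0.00482). None of the tested neighbours thus rose with JUb74 in both genotypes. ilys-1, 1534 bases past the end of ilys-2, stayed at 0 reads, and grd-16, which was not tested, had at most 9 reads in any of these 4 groups.

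The genes with the most similar pattern over the 10 libraries were found by Pearson's r of log2 CPM, which describes libraries that share groups. For ilys-2 they were lys-10 (r = 0.991), a protozoan-type lysozyme gene, fat-5 (0.977), a fatty acid desaturase gene, and W06D12.8 (0.961). For ilys-3 they were lys-10 (0.981), str-144 (0.977) and fat-6 (0.975), another desaturase gene. W06D12.8 and str-144 were below 1.5 CPM in every library. ilys-2 and ilys-3 had an r of 0.976 with each other, and -0.740 and -0.786 with ilys-5. For ilys-5 the nearest genes were F28H7.3 (0.978), C26B9.5 (0.978) and bgal-2 (0.977), and for ilys-4 they were pes-5 (0.959), tcl-2 (0.957) and Y50C1A.2 (0.949).

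The protozoan-type lysozymes are the other lysozyme family of the worm. Of 10 genes 9 were tested, and on JUb74 2 rose in wild type and 4 in unk59, with 0 falling in either. Over all genes 2.65% rose in wild type and 33.5% in unk59, so the share in unk59, 4 of 9, was near the background. Their median log2 fold changes were 0.93 and 0.48, beside 0.00 and 0.08 over all genes tested. lys-10 went from 0.226 ± 0.126 to 230 ± 127 CPM in wild type (SD, n = 2), and lys-2 rose by 2.10 (standard error 0.502, adjusted p 0.0362) there and by 1.88 (standard error 0.499, adjusted p 0.00970) in unk59. lys-7 and lys-8 rose in unk59, by 4.01 and 0.73, and changed by -0.13 and -0.16 in wild type. Adjusted p for the interaction was 0.00228 for lys-7 and 0.00995 for lys-8.

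None of the infection markers and antibacterial factors listed here passed the test as higher on JUb74 in both genotypes. Among 7 genes used as markers of infection with the Gram-positive Staphylococcus aureus, 2 rose and 0 fell in wild type on JUb74 and 1 rose and 2 fell in unk59, with median log2 fold changes of 0.69 and -0.34. In unk59, where 59.8% of all genes passed, 3 of 7 is no more than the background. exc-5, which encodes a guanine nucleotide exchange factor, rose by 0.69 (standard error 0.163, adjusted p 0.0351) in wild type and fell by 1.08 (standard error 0.166, adjusted p 0.000583) in unk59. F53A9.8 rose by 1.67 in wild type (adjusted p 0.0417), the C-type lectin gene clec-71 rose by 2.08 in unk59 (adjusted p 0.0103) and clec-52 fell by 2.11 (adjusted p 0.00198). Of 6 antibacterial factor genes (abf), 5 were tested. None passed in wild type and 4 rose in unk59 (medians 0.94 and 2.66), beside 33.5% of all genes that rose there. By sign, 4 of the 5 were positive in wild type and 5 in unk59. abf-6 was at 1.37 in wild type (standard error 0.577, adjusted p 0.177) and 2.07 in unk59 (adjusted p 0.0168). A missed threshold in wild type thus does not show that these genes were unchanged there. In unk59 abf-2 was at 14.3 ± 2.05 CPM on JUb74 against 0.295 ± 0.0128 on OP50 (SD, n = 2).

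Genes of the pathways that control intestinal defence were counted beside all genes, of which 2.65% rose and 6.29% fell in wild type on JUb74 and 33.5% rose and 26.3% fell in unk59. Of 10 regulators, 2 rose in wild type on JUb74, zip-2 by 0.75 and pqm-1 by 0.67, both transcription factor genes. In unk59, 6 fell and 0 rose, among them zip-2 by 0.87, the Hox gene egl-5 by 2.35, elt-2, the GATA factor of the intestine, by 0.78, and the beta-catenin gene bar-1 by 0.74. The medians of the regulators were 0.52 and -0.61. Of 5 genes of the p38 MAPK cascade, tir-1, which encodes its adaptor, and the phosphatase gene vhp-1 rose in wild type by 0.74 and 0.98. In unk59 tir-1 fell by 1.28 and the kinase gene pmk-1 by 0.61, and the medians of the cascade were 0.08 and -0.38. Of 7 genes of the ERK MAPK cascade, 0 passed in wild type and 3 fell in unk59, the kinase gene mpk-1 by 0.81, the scaffold gene ksr-1 by 0.75 and the Ras gene let-60 by 0.48, with medians of 0.16 and -0.28. The counts of the ERK cascade were near the background in both genotypes. These lists were chosen with earlier results of the same data known.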

How the data were processed

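The deposited values are raw counts, given per gene in 2 tables for each of 5 samples. The submitters' processing notes name STAR 2.7.10, DESeq2 and the build WBcel235; the annotation release is not given in the sources used here. Per the labels' protocols, sequencing was paired-end with 100 bases a read. The strand columns split reads evenly (median share 49.8% to 50.1%), so the authors' unstranded counts (column 2) were used. Read pairs that were unmapped (2.02% to 2.61%), multimapping (2.28% to 3.49%), outside genes (0.350% to 0.537%) or ambiguous (1.72% to 1.85%) stayed out. The tables of a sample differed far beyond sampling noise (chi-square per degree of freedom 19.8 to 88.9) and entered as separate libraries. A table linked to no sample (1 file) was not used.

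The 15950 genes passing filterByExpr were fitted in edgeR 4.0.16 (R 4.3.3) with TMM scaling, a mean per group and robust quasi-likelihood F tests, all groups sharing the estimate of spread (common biological coefficient of variation 23.4%). Benjamini-Hochberg adjustment ran over all genes, with a threshold of 0.05, in 7 comparisons. Standard errors were derived from the fold change and F. The test was also run on simulated counts in which few genes changed, unlike these data, and that run is no check of the calls above. CPM used TMM-scaled library sizes, and RPKM divided them by merged exon length. Symbols and positions came from the Ensembl release 115 annotation, where 46603 IDs were found, and a name table with 43818. The intervals of ratios and shares are exact (Clopper-Pearson). DESeq2 1.42.0 was an alternative, with other scalings, filters, the strand column, a library-number block, the mean log2 CPM of the oocyte and eggshell list as a covariate, separate fits and leaving out each library. The text names every ilys gene, up to 4 passing genes per list and food comparison with the largest change, and the 3 most similar genes per member; the surrounding genes were named after their values were seen. The members and lists were chosen with earlier results of these data known.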

Additional observations from a re-analysis of the deposited data

Results flagged for a closer look

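The effect of the food on ilys-4 differed between the genotypes by an interaction test, which 43.3% of all genes passed. The log2 difference of the effects, unk59 minus wild type, was -1.04 (standard error 0.270, adjusted p 0.0121, edgeR). Both JUb74 libraries of unk59 lay below both OP50 libraries of unk59, and both JUb74 libraries of wild type lay above both OP50 libraries of wild type. The call was lost without library 2 of wild type on OP50 (adjusted p 0.0670), without library 1 of unk59 on OP50 (0.0564) without library 2 of unk59 on JUb74 (0.0604) and with the oocyte markers as a covariate (0.820).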

How the results depend on the processing

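Of 516 values for the tested ilys genes under other settings, 433 kept their direction and side of the threshold, 60 lost the call, 3 gained it and 20 changed sign. Library numbers come only from the table names and did not pair the libraries (correlations of same-numbered deviations -0.29 to 0.26). With the number as a replicate block, 579 genes passed for the food in wild type (1426 without it) and 0 for unk59 against wild type on OP50 (2 without it), the food-by-genotype difference of ilys-2 was -0.13, and ilys-5 in unk59 against wild type on JUb74 was -1.01 (adjusted p 0.0555). With the oocyte markers as a covariate, 0 genes passed for the food in wild type, the food-by-genotype difference and the OP50 comparisons, 168 passed for the food in unk59 and 180 for unk59 against wild type on JUb74, and 0 ilys genes passed in any comparison. Signs then changed for ilys-2 in unk59 against wild type on OP50 (-0.62), ilys-5 in unk49 against wild type (0.23), ilys-3 and ilys-5 in unk49 against unk59 (-0.070 and 0.67), and the food-by-genotype difference of ilys-3 and ilys-5 (-0.92 and 0.26). The markers differ mainly between groups, and the cause was not tested. A minimum of 10 reads in every library takes ilys-2 and ilys-3 out by construction. It left 0 of the family called for the food in wild type, 1 in unk59, 0 in unk49 against either genotype and 1 in unk59 against wild type on JUb74. Over all genes it left 429, 6194 and 4365 for the food in wild type, in unk59 and their difference, and 7 for unk59 against wild type on OP50. For that last comparison relative log expression scaling gave 1, no filter 102, DESeq2 432, the strand column 0 and a fit of its own groups 0. For the food in wild type DESeq2 gave 2180 and the strand column 912. For unk49 against wild type no filter and the strand column left 1 ilys gene, and upper-quartile scaling turned ilys-4 to -0.12 (median of all genes -0.09, against 0.11 under the scaling used). For unk49 against unk59 upper-quartile scaling left 1, and no filter, the strand column and a fit of its own groups left 0. The own-groups fit gave -0.041 for the food-by-genotype difference of ilys-2. Causes of these changes were not tested.

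With each library left out in turn, the lone library was assumed to vary like the other groups. Genes called then ranged from 13 to 1921 for the food in wild type, 7224 to 10473 in unk59, 5035 to 7697 for their difference, 0 to 409 for unk59 against wild type on OP50, 4141 to 7540 for unk49 against wild type, 7149 to 10218 for unk59 against wild type on JUb74 and 6576 to 8765 for unk49 against unk59. The ilys genes called ranged from 1 to 3, 2 to 4, 0 to 2, 0 to 0, 0 to 2, 1 to 3 and 0 to 2 in the same order. Signs changed within ranges of -0.020 to 0.66 for ilys-2, -1.03 to 1.25 for ilys-3 and -0.39 to 0.043 for ilys-5 in unk59 against wild type on OP50. They also changed within -0.11 to 0.16 for ilys-4 in unk49 against wild type, -0.23 to 0.70 for ilys-2 in unk59 against wild type on JUb74, and -0.42 to 0.42 for the food-by-genotype difference of ilys-2. Depth limits ilys-1, ilys-6 and the OP50 levels of ilys-2 and ilys-3, which rest on 3 to 80 read pairs a library.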
